A study of Homo sapiens with 151 samples.

Results

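The replication-dependent histone genes were examined in HepG2, a line of human liver cancer cells, for the proteins that bind at their promoters. Members were the protein-coding genes on chromosomes 1 and 6 in GENCODE 44 that carry the systematic symbols of the linker histone H1 (H1-1 to H1-6) or of the core histones H2A, H2B, H3 and H4 (H2AC, H2BC, H3C and H4C followed by a number). The rule found 68 of 20033 protein-coding genes: 6 H1, 17 H2A, 18 H2B, 13 H3 and 14 H4 genes, 55 of them on chromosome 6 and 13 on chromosome 1. The series holds 151 samples of this line, for which the labels name no treatment: 24 are input libraries, sequenced without an antibody, and the others are lists of ChIP-seq peaks, each for 1 DNA-associated protein (DAP) that carried a FLAG tag and was captured with the Anti-FLAG M2 antibody. The main results rest on the preferred lists, which are all but 6 of these lists and follow the study's choice of data sets. Of the preferred lists 15 are for non-TF DAPs and the rest for transcription factors (TFs). Each DAP has 1 list, so no list has a replicate, and the depth of sequencing behind a list is unknown. For each gene the count is the number of preferred lists with a peak overlapping the 1 kb around the canonical transcription start site (TSS), 500 bp on either side; such a gene or window is called bound by the list.

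Replication-dependent histone genes are transcribed in S phase, when new DNA has to be packed into nucleosomes. They lack introns, and their mRNAs end in a stem-loop rather than a poly(A) tail. In human cells NPAT, a coactivator driven by cyclin E and CDK2, gathers at the histone genes in nuclear bodies, and H2B promoters are the textbook target of POU2F1 (Oct-1), a POU-domain TF that reads an octamer. Many H2A and H2B genes stand head to head and share the spacer between them, and several members are near-identical copies of one another.

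The upstream sequences of a few members show what these promoters hold and where they differ. They are given 5′ to 3′ on the gene's own strand and end at the base before the TSS (hg38), with the octamer, ATTTGCAT or its reverse complement ATGCAAAT, and the TATA element, TATAAA or its reverse complement TTTATA, in capitals. H2BC21 (chr1:149886683-149886822, minus strand) has both elements. H2BC10 (chr6:26272791-26272930, plus strand) has the octamer at the same place without TATAAA, and in H2BC4 (chr6:26123927-26124066, minus strand) it lies farther upstream. H2BC6 (chr6:26183621-26183760, plus strand) has an octamer but no list with a peak, and H2BC5 (chr6:26157982-26158121, plus strand) has strong POU2F1 signal without an exact octamer. The spacer of H2BC8 and H2AC8 (chr6:26216689-26216920, shown on the plus strand from H2BC8, which is read leftward, to H2AC8) holds a single octamer, which lies in the windows of both genes.
H2BC21: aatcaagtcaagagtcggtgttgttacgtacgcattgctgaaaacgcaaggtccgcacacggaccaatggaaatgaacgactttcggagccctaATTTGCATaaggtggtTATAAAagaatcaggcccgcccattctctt
H2BC10: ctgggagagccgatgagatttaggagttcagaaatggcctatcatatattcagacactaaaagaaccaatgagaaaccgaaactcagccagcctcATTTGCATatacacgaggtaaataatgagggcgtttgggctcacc
H2BC4: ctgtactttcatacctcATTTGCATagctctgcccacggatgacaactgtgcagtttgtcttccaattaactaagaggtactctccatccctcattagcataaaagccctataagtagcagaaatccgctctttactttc
H2BC6: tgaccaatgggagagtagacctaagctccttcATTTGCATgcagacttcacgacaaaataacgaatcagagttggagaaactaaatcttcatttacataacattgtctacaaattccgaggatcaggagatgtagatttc
H2BC5: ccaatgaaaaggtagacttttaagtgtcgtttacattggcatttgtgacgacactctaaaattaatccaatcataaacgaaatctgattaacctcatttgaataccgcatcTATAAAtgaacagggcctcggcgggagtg
H2BC8-H2AC8 spacer: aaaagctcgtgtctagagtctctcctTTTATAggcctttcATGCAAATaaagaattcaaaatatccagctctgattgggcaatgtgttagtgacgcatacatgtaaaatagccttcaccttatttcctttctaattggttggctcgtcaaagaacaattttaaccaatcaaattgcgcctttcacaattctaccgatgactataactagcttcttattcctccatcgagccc

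The number of DAPs at histone gene promoters ran from 0 to 95. Of the 68 members, 19 had no list, 17 had 1 to 30 lists, and 32 (47.1%) had 31 lists or more, which is at least 25% of the preferred lists and is called highly bound. Among all 20033 protein-coding windows 36.9% were highly bound. At least 1 list was found at 49 of the 68 members, against 67.9% of all protein-coding windows. The median was 25 lists for the members and 15 for the other protein-coding genes, and the mean was 33.9 ± 32.4 lists and 23.96 ± 26.1 lists (SD over 68 and 19965 genes). The members just inside the highly bound class, H3C7 and H2BC10, had 31 lists each, and the next below, H2AC16, had 27. The median ratio of observed to expected CpG was 0.858 for the 19 members with no list, 0.847 for the 17 with 1 to 30 lists and 0.860 for the 32 highly bound members.

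**Figure D1:**
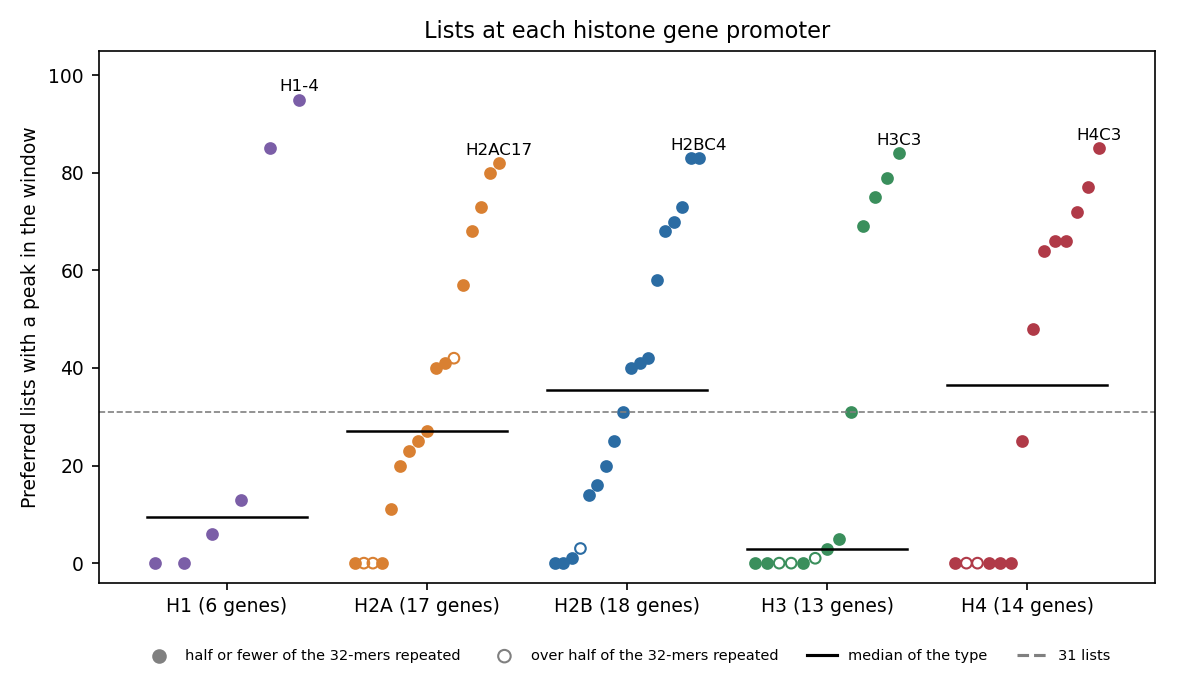
Number of preferred lists with a peak within 500 bp of the TSS (vertical axis) for each of the 68 members, grouped by histone type (horizontal axis) and sorted within the type. Each point is 1 gene, black lines are medians, the dashed line marks 31 lists, and open points are windows in which most of the 32-base words recur elsewhere in the genome; every type has members at 0 lists and members above 80.

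The linker histone genes, whose protein sits on the DNA between nucleosomes, spanned the whole range. H1-4 (chr6:26156329-26157115) had 95 lists, the most of any member, and H1-2 (chr6:26055740-26056470) had 85. H1-5 had 13 lists and H1-3 had 6, while H1-1 and the testis-specific H1-6 had none. The median over the 6 genes was 9.5 lists, and no gene lay between 13 and 85. The 6 lists at H1-3 were those of FOXC1, SALL1, SMAD7, ZBTB12, ZMYM4 and ZNF746, and their signal at H1-3 lay between percentiles 19.9 and 50.7 of each list.

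The H2A and H2B genes, which code for the dimer on the outer faces of the nucleosome core, had medians of 27 and 35.5 lists. H2AC17 (82 lists) and H2BC17 (83 lists) are a divergent pair on chromosome 6, as are H2AC6 (80 lists) and H2BC4 (83 lists), and H2AC15 and H2BC15 (73 lists each). At the low end, H2AC1 and H2BC1, a divergent pair expressed in testis, had no list, and neither had H2BC6, H2AC25, H2AC18 and H2AC19. H2BC26, the partner of H2AC25 on the long arm of chromosome 1, had 1 list, that of ZNF865. If lists were independent samples, a count of 0 would allow a share of up to 2.48% of the preferred lists. That does not cover H2AC18 and H2AC19, whose windows recur wholly elsewhere in the genome, as described below.

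The H3 and H4 genes code for the inner tetramer of the nucleosome. H3C3 had 84 lists, H3C4 had 79, H3C2 had 75 and H3C10 had 69, and H3C7 had 31. The other H3 genes had 5 lists (H3C6), 3 (H3C1), 1 (H3C13) or none (H3C8, H3C11, H3C12, H3C14 and H3C15), which put the H3 median at 3 lists. H4C3 had 85 lists, H4C2 had 77 and H4C12 had 72, and H4C4 and H4C8 had 66 each. No list was found at 6 H4 genes (H4C6, H4C7, H4C9, H4C13, H4C14 and H4C15), and H4C5 with 64 lists, H4C11 with 48 and H4C1 with 25 lay between them. The 3 lists at H3C1 were E2F8, SALL1 and STAT5A, and the only list at H3C13 was ZMYM4.

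Repeated sequence limits what a peak list can show at some members. Reads that match several places are hard to assign, so the share of 32-base words of each 1 kb window that recur elsewhere in hg38 was counted. In 9 windows over 50% of the words recurred, 8 of them among the 13 chromosome 1 members. All words recurred in the windows of H2AC18, H2AC19, H3C14, H3C15, H4C14 and H4C15, which form an inverted duplication on chromosome 1, and all 6 had no list. The other 3 were H3C13 (81.1% of words, 1 list), H2BC18 (75.5%, 3 lists) and H2AC13 (50.9%, 42 lists). Of the 59 members left, 13 had no list, among them H4C13 and H3C8, in which 0.722% and 0.516% of words recurred. H4C11 and H4C12 share 49.3% of their words and differ at 2 of the 140 bases upstream of the TSS, shown here because identical stretches of this kind sit beside different counts of 48 and 72 lists. The part of multi-mapping reads in these counts was not tested, since reads were not used here.
H4C11 (chr6:27823952-27824091, plus strand): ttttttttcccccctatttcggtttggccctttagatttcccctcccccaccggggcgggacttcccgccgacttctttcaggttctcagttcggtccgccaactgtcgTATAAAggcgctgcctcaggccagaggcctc
H4C12 (chr6:27831561-27831700, minus strand): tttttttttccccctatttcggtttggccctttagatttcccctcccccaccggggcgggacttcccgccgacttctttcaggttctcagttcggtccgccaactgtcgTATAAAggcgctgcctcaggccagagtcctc

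The members fell into 5 groups when a gap of 500 kb or more was taken to part them. The largest, on chromosome 6 from 25726562 to 26285534, held 34 members with a median of 49 lists, 21 of them highly bound. The 16 members from 27807929 to 27893425 had a median of 42 lists and 9 highly bound members, and the 5 from 27132795 to 27147106 had a median of 14 lists and none highly bound. On chromosome 1, the 11 members from 149812370 to 149887965 had a median of 0 lists, with only H2BC21 (41 lists) and H2AC20 (40 lists) highly bound, and the pair H2AC25 and H2BC26 at 228457873 to 228458103 had 0 and 1 list. The share of windows bound, averaged over the preferred lists, was 33.0% for chromosome 6 members and 7.06% for chromosome 1 members, a difference of 25.9 ± 13.95 percentage points (SD over lists) that was positive in 119 lists and negative in 0 (two-sided sign-flip permutation test over lists, p = 1e-05, the smallest that 100000 permutations can give). Without the 9 windows of repeated words, 5 chromosome 1 members remained and the shares were 33.0% and 17.7%, a difference of 15.3 points (p = 1e-05). Those 5 were the divergent pair H2BC21 and H2AC20 (41 and 40 lists), H2AC21 (25), and the divergent pair H2AC25 and H2BC26 (0 and 1). Both p-values cover the spread over lists and not that between genes. Within the large group, members without a list stood beside bound ones: H2BC6 (0 lists) lies between H2BC5 (70) and H4C4 (66), and H3C8 (0) between H2BC9 (16) and H2BC10 (31).

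Between the members, other protein-coding genes lay only within the large group, where 7 had a TSS. The phosphate transporter genes SLC17A4, SLC17A1, SLC17A3 and SLC17A2 had 1, 5, 0 and 22 lists, the ubiquitin ligase gene TRIM38 had 10, and the iron regulator gene HFE had 36. The gene ENSG00000282988 had 57 lists, and its TSS is that of H2AC7, so its window and count are those of the histone gene.

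Per list, the share of histone promoters bound was higher than that of other protein-coding promoters. The mean over the preferred lists was 28.0% of the members and 19.8% of the other protein-coding windows, an excess of 8.23 ± 6.25 percentage points (SD over lists), with the members higher in 110 lists and lower in 11 (two-sided sign-flip permutation test over lists, p = 1e-05). Lists come from the same cell line and antibody and the p-value treats them as separate samples. It covers the spread over lists and not that between genes, and divergent members whose windows overlap were each counted. Without the windows of repeated words the excess was 11.9 points (31.7% and 19.8%, p = 1e-05). The excess was 7.94 ± 5.88 points in TF lists and 10.3 ± 8.35 points in the 15 non-TF lists, a difference of −2.31 points that did not pass (two-sided permutation test over lists, p = 0.18). It passed in 3 of the other ways of counting, with p from 0.02 to 0.036, each with the TF lists lower.

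**Figure D2:**
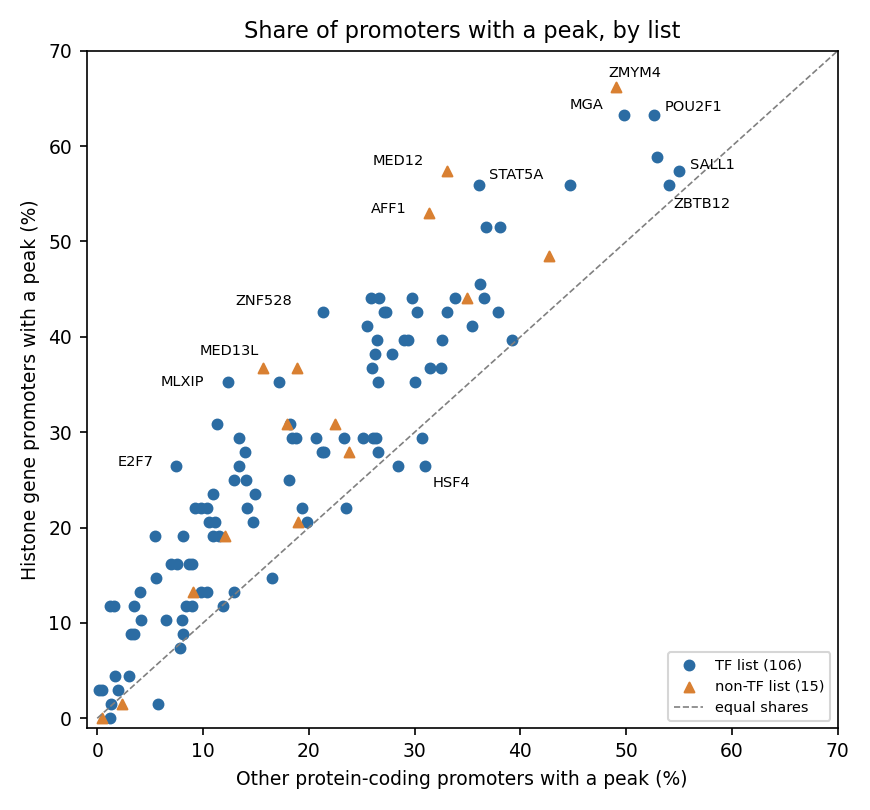
Share of the 68 histone gene promoters with a peak (vertical axis, percent) against the share of the 19965 other protein-coding promoters with a peak (horizontal axis, percent); each point is 1 preferred list, circles for TFs and triangles for non-TF DAPs. Points above the dashed line have the larger share at histone genes, as in 110 lists, and MED12 has the largest excess.

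The lists that reached most members were long ones. ZMYM4, an MYM-type zinc finger protein, had a peak at 45 of the 68 members (66.2%, 95% exact interval 53.7 to 77.2), against 49.1% of all protein-coding windows. MGA, a MAX-binding bHLH factor, and POU2F1 had peaks at 43 members each (63.2%, interval 50.7 to 74.6), against 49.8% and 52.7% of all protein-coding windows. ZFP91 bound 40 members and SALL1 39, against 53% and 55% of all protein-coding windows, and ZBTB12 bound 38 against 54.1%, so that SALL1 and ZBTB12 exceeded the other protein-coding genes by 2.33 and 1.82 points only. Intervals, here and below, cover counting error only, and windows that overlap are not independent. The preferred lists held between 195 and 61748 peaks, and 2 had no peak at any member.

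MED12, a subunit of the Mediator kinase module, had the largest excess over the other protein-coding genes, 24.3 points. It bound 39 members (57.4%, interval 44.8 to 69.3), against 33.2% of all protein-coding windows. MED13L, of the same module, bound 25 members (36.8%) against 15.7%, and AFF1, a scaffold of the super elongation complex, bound 36 (52.9%) against 31.5%. Among TFs, the glucose-responsive bHLH factor MLXIP bound 24 members (35.3%, interval 24.1 to 47.8) against 12.4%, the cytokine effector STAT5A bound 38 against 36.2%, and the zinc finger proteins ZNF528, PEG3, ZNF544 and ZNF875 bound 29, 21, 30 and 24 members, against 21.4%, 11.4%, 26% and 17.3%. At the other end, HSF4 bound 18 members against 30.9% of all protein-coding windows, ZNF45 bound 1 against 5.78%, and MEIS1 bound 18 against 28.4%. These lists were ranked by the same counts, so their values are a description.

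E2F7 and E2F8, atypical E2F factors that repress genes of S phase, both had a larger share at histone genes, as 110 of the preferred lists did. By excess over the other protein-coding genes they ranked 8 and 35 among the preferred lists. E2F7, with 3347 peaks in all, bound 18 members (26.5%, interval 16.5 to 38.6) against 7.53% of all protein-coding windows, and E2F8, with 31898 peaks, bound 38 (55.9%, interval 43.3 to 67.9) against 44.8%. All 18 E2F7 members were also bound by E2F8, which is 100% of the E2F7 members and 47.4% of the E2F8 members. Among the other protein-coding genes 93.6% of the E2F7 windows were shared in this way, close to the share at the members. E2F7 bound 2 H1, 5 H2A, 6 H2B, 4 H3 and 1 H4 genes. All 5 H2A genes shared the strongest E2F7 peak with a divergent H2B partner that was also counted, so the 18 members are fewer separate sites. The strongest E2F7 peak at a member was at H4C3, at percentile 97.2 of the signal in its list. H1-4, H2BC4 (with H2AC6), H1-2 and H2AC17 (with H2BC17) followed at percentiles 87.6, 87.5, 86.1 and 83.1.

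The histone types differed in the share bound, but the order depended on how a peak was given to a gene. Averaged over the preferred lists, the share of windows bound was 27.4% for H1, 28.6% for H2A, 30.7% for H2B, 22.1% for H3 and 29.7% for H4. Of the 10 pairs of types, 5 differed at an adjusted p under 0.05 (two-sided sign-flip permutation tests over lists, Benjamini-Hochberg over the 10 pairs). H3 was lower than H1 by 5.35 points (adjusted p = 5e-05), than H2A by 6.57 (adjusted p = 3.3e-05), than H2B by 8.61 (adjusted p = 3.3e-05) and than H4 by 7.63 (adjusted p = 3.3e-05), and it was the lower of the pair in 83, 83, 84 and 80 of the lists. H2A minus H2B was −2.04 points (adjusted p = 0.00042), and the other 5 pairs did not pass, with adjusted p from 0.063 to 0.44. These p-values cover the spread over lists and not that between genes, which was wide: the SD of the count over genes was 44.4 lists for the 6 H1 genes, of which H1-4 and H1-2 hold most of the total, and 35.8 lists for the 13 H3 genes.

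These differences moved with the way shared promoters and repeated windows were counted. In 13 pairs of members the windows overlap, 12 of them divergent H2A and H2B genes with TSSs 194 to 251 bp apart, and of 551 combinations of a list and a pair with a peak at either gene, 500 (90.7%) had a peak at both. When each summit, the point of highest signal in a peak, was given only to its nearest TSS, the H2B share became the lowest of the 5 at 17.5%, against 22.2% for H2A, 21.3% for H3, 27.3% for H1 and 29.2% for H4. H2A minus H2B was then 4.68 points and H2B minus H3 was −3.76 points, both opposite in sign to the values above (adjusted p = 6.7e-05 and 0.0014). Without the windows of repeated words H3 reached 28.6%, and H1 minus H3 was −1.18 points (adjusted p = 0.43). The H2A minus H2B call was also lost without these windows (−0.0382 points, adjusted p = 0.96), with 300 bp upstream only (−0.42, adjusted p = 0.6), with a window of 250 bp (−1.14, adjusted p = 0.13) and with summits inside the window (−1.06, adjusted p = 0.15). H2A minus H3 did not pass with a score of 830 or more (0.157 points, adjusted p = 0.88), with the peaks at or above the median signal (1.54, adjusted p = 0.16) or with the nearest TSS (0.92, adjusted p = 0.43), and H2B minus H3 did not pass with a score of 830 or more (1.86, adjusted p = 0.094). H4 remained above H3 under every way of counting that was tried.

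**Figure D3:**
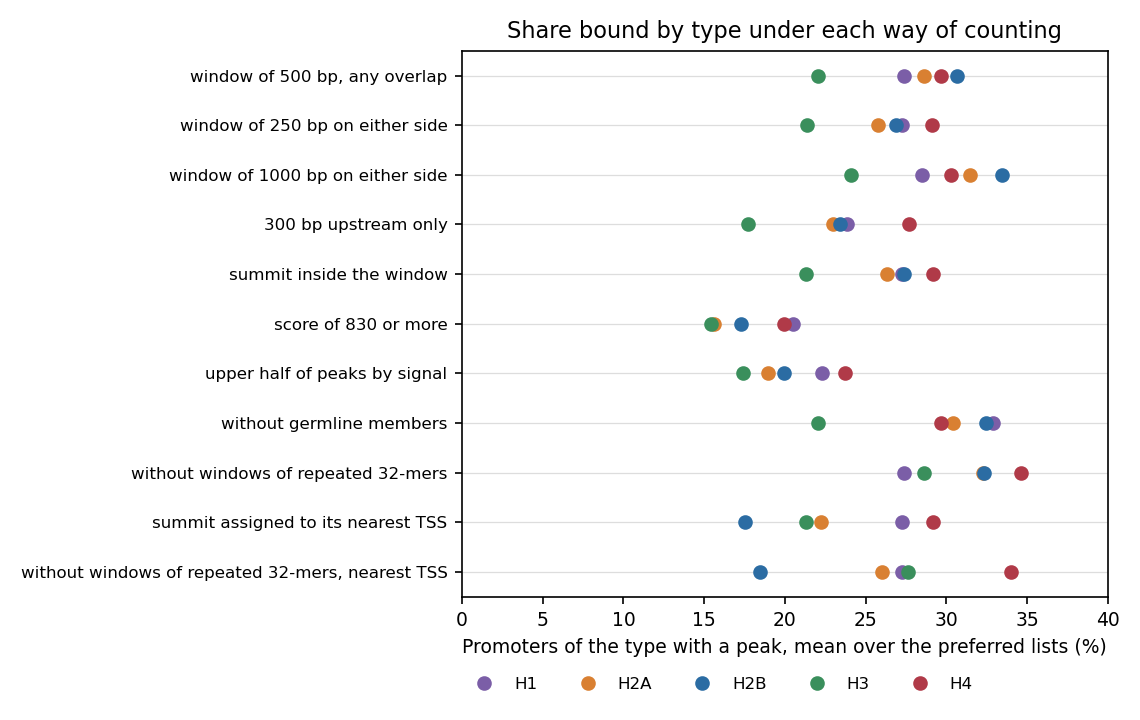
Share of the promoters of each type with a peak (horizontal axis, percent, mean over the preferred lists) under 11 ways of counting (rows); each colour is 1 histone type. H3 is lowest in the top rows, and H2B falls to 17.5% and 18.5% where each summit counts only for its nearest TSS.

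Some lists had a larger share at 1 type than at the other types together. For H1, ZUP1, a deubiquitinase with zinc fingers, bound 3 of 6 genes and 5 of the 62 other members, against 1.63% of all protein-coding windows. ZNF75D bound 2 and 3 and FAM200B 2 and 5, against 7.79% and 4.15%. For H2A, ZMYM2 bound 9 of 17 genes and 16 of 51 others, RCOR3, a CoREST protein, bound 10 and 20, and MED12 bound 12 and 27, against 19%, 35% and 33.2% of all protein-coding windows. MED12 also bound 13 of the 18 H2B genes, so its larger share was not particular to H2A. For H3, the nuclear factor I protein NFIB bound 4 of 13 genes and 2 of 55 others, against 3.5%, ZNF559 bound 4 and 3, against 8%, and HSF4 bound 6 and 12. For H4, ZNF827 bound 7 of 14 genes and 12 of 54 others, and ELK3, an ETS factor, and ZNF85 each bound 7 and 13, against 21.3%, 23.3% and 18.4%. For H2B the 3 leading lists were MGA and POU2F1, each with 15 of 18 genes and 28 of 50 others, and STAT5A, with 13 and 25. Since the types hold few genes and the lists were picked for these differences, no test was made.

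Summits at H1, H3 and H4 genes lay mostly inside the transcribed part. Over the lists with a summit near such genes, a mean of 96.9% ± 8.85 of the strongest summits at H1 genes (SD over lists), 95.4% ± 12.0 at H3 genes and 76.3% ± 22.04 at H4 genes lay downstream of the TSS. In the same lists the means at other protein-coding windows were 51.3%, 51.0% and 51.1%, and the histone genes had the higher share in 107 of 108 lists at H1, in 103 lists at H3 and in 93 of 108 lists at H4. Most of the 199 combinations of list and H1 gene came from H1-4 (95 lists) and H1-2 (85 lists), so the H1 values rest mainly on these genes. The median summit lay 96 bp into H1 genes, 140 bp into H3 genes and 46 bp into H4 genes. At H2A genes 69.3% ± 21.2 lay downstream (109 lists), and at H2B genes 47.8% ± 25.9 (108 lists).

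**Figure D4:**
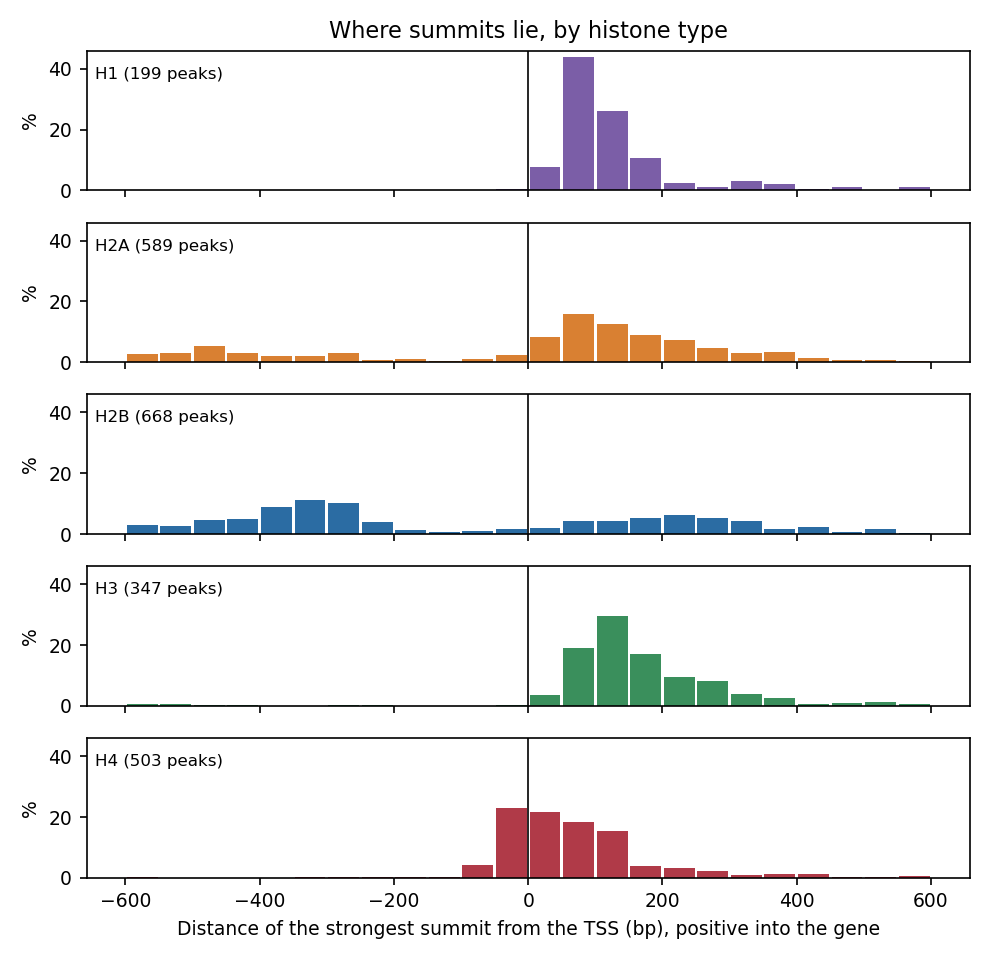
Position of the strongest summit relative to the TSS (horizontal axis, bp, positive into the gene) as a percent of the list and gene combinations of each type (vertical axis), for H1, H2A, H2B, H3 and H4 from top to bottom. Summits at H1 and H3 genes lie almost wholly downstream of the TSS, and at H2B genes they fall into a group on either side of it.

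At the divergent H2A and H2B pairs the strongest summit of lists other than POU2F1 lay nearer the H2A gene in 331 of 503 combinations of list and pair (65.8%). The share was highest at H2AC14 with H2BC14 (89.5% of 19) and H2AC17 with H2BC17 (86.6% of 82). It was below one to one at H2AC13 with H2BC13 (30.95% of 42) and H2AC20 with H2BC21 (38.1% of 42), and the single list at H2AC25 with H2BC26 lay nearer H2BC26. For POU2F1 it was 4 of 10 pairs.

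POU2F1 bound most H2B genes, and its peaks there were among the strongest in its list. It had a peak at 15 of 18 H2B genes (83.3%, 95% exact interval 58.6 to 96.4) and at 28 of the 50 members of the other types (56.0%, interval 41.3 to 70.01), against 52.7% of all protein-coding windows. The other types were bound at 13 of 17 H2A genes, 8 of 14 H4 genes, 5 of 13 H3 genes and 2 of 6 H1 genes. MGA had the same counts in both groups. At the 15 bound H2B genes the median signal was at percentile 98.6 of the POU2F1 list, and 10 of the 15 were at percentile 95 or above, against a median percentile of 78.8 and a share of 14.3% at 95 or above among 10513 other protein-coding windows with a POU2F1 peak. At the 28 bound members of the other types the median was 96.7, with 16 at 95 or above. These members include H2A genes that share a peak with a divergent H2B partner. Both shares and both medians therefore count some of the same peaks. The intervals treat genes as independent, which they are not, so they do not serve to compare H2B genes with the other types. By type the median percentile was 98.4 for H2A, 95.1 for H3, 93.0 for H4 and 92.6 for H1. Of the 67 lists with a peak at 5 or more H2B genes, POU2F1 had the highest median percentile at H2B genes, AFF1 was next with 83.5, and the median of the other lists was 61.7.

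The single values show which H2B genes carry this. H2BC21 and H2BC4 were at percentile 99.9, H2BC17 and H2BC5 at 99.8, H2BC7 at 99.8, H2BC8 at 99.6, H2BC10 at 99.1, H2BC3 at 98.6, H2BC18 at 98.4 and H2BC11 at 98.4. H2BC15 (94.8), H2BC14 (87.5) and H2BC9 (75.8) were lower, and H2BC12 (40.2) and H2BC13 (33.9) were weak. No POU2F1 peak was found at H2BC1, H2BC6 and H2BC26. H2BC18 had only 3 lists, POU2F1, MED12 (percentile 41.2) and MGA (percentile 15.5), in a window with 75.5% of its words repeated. The windows of other types that were strong for POU2F1 included H2A partners of these genes, which share the peak, and H4C3 (99.0), H3C3 (98.8), H3C10 (98.7), H4C5 (98.5) and H1-4 (98.5).

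**Figure D5:**
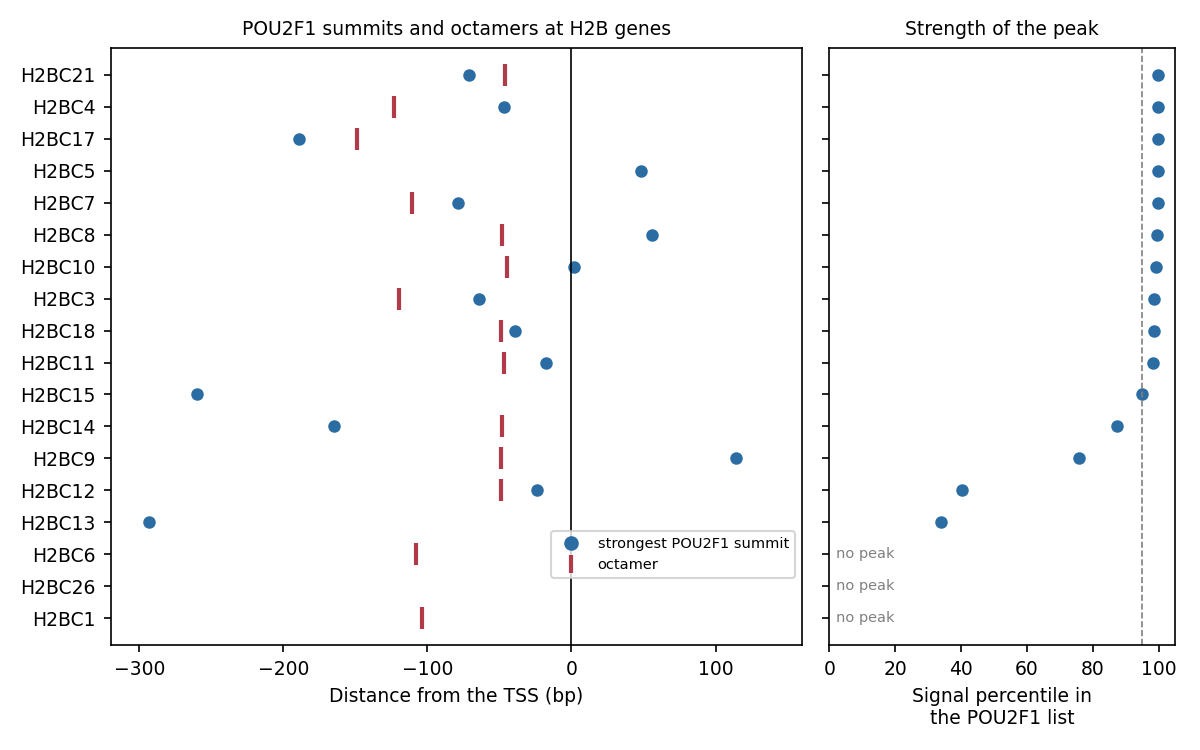
Left, distance from the TSS (horizontal axis, bp) of the strongest POU2F1 summit (circles) and of the octamer (vertical ticks) at each of the 18 H2B genes; right, percentile of the peak's signal among all POU2F1 peaks, with a dashed line at 95. At percentile 95 or above lie 10 genes, and H2BC6 and H2BC1 have an octamer without a peak.

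Among the members, the octamer was found at H2A and H2B promoters. In the 250 bases upstream of the TSS, on either strand, ATTTGCAT or ATGCAAAT was present at 14 of 18 H2B genes and 12 of 17 H2A genes, which mostly share the same copy across a spacer, and at 0 H1, H3 and H4 genes, against 314 of all 20033 protein-coding genes (1.57%). In 8 H2B genes its first base lay 45 to 49 bases upstream of the TSS, as in H2BC21 and H2BC10 above, and in the other 6 it lay 104 to 149 bases upstream. For comparison, TATAAA, on either strand, was present upstream of 45 of 68 members, against 9.34% of all protein-coding genes, and CCAAT or ATTGG at 59 of 68, against 34.3%, with every H1, H2A, H2B and H3 gene and 5 of 14 H4 genes. These counts too can credit a copy in a shared spacer to both divergent genes, as with the single TATA element between H2BC8 and H2AC8. A match to such letters is a description of the sequence and does not show a bound site.

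POU2F1 summits at H2B genes lay close to the octamer. At the 12 H2B genes with both an octamer and a peak, the median distance from the summit to the octamer was 43.5 bp, the shortest among the 67 lists, and the median of the other lists was 282.5 bp. The distances were 6 bp at H2BC18, 21 at H2BC12, 25 at H2BC11, 28 at H2BC7, 29 at H2BC21, 43 at H2BC10, 44 at H2BC17, 52 at H2BC3 and 72 at H2BC4, and they were 100 bp or more at H2BC8, H2BC14 and H2BC9. In the 200 bp upstream of the TSS lay 9 of 15 POU2F1 summits at H2B genes (60.0%) and 20 of 653 summits of the other lists (3.06%). At H4 genes the same stretch held 5 of 8 POU2F1 summits and 27.3% of 495 summits of other lists.

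Of the 26 members with an octamer upstream 23 had a POU2F1 peak (88.5%), and of the 42 without 20 had one (47.6%). The counts were 11 of 12 and 2 of 5 among H2A genes and 12 of 14 and 3 of 4 among H2B genes. The 42 without an octamer include the 6 windows in which all words recurred, H2AC18 and H2AC19 among them. None of these 6 had a peak in any preferred list. Divergent pairs that share an octamer and a peak count at both genes. Octamer and peak did not always go together. H2BC5 had a POU2F1 peak at percentile 99.8 with a best match 1 base off the octamer, 45 bases upstream, and H2BC13 and H2BC15 had peaks with best matches 2 bases off. H2BC6 and H2BC1 had an exact octamer, 108 and 104 bases upstream, and no peak in any preferred list. Among the other protein-coding genes, 139 of 288 with an octamer upstream had a POU2F1 peak (48.3%), and 52.7% of those without. The genes with an octamer also had fewer lists in all there, with a median of 2 lists against 15, whereas among the members the medians were 29 and 9.5 lists. In the 500 strongest POU2F1 peaks of the genome the octamer lay within 50 bp of the summit in 15.4%, and in 1.00% and 0.40% of equal windows 1000 bp to the right and to the left. Among all 42562 POU2F1 peaks it was 0.806%, against 0.468% and 0.470%.

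Lists that share an input library with POU2F1 had peaks at fewer H2B genes. They were also shorter, with 10605 to 22769 peaks against 42562 for POU2F1, and the part of list length in this was not tested. HES4, ZNF219 and ZNF865 each bound 7 of 18 H2B genes, against 33.1%, 25.6% and 18.3% of all protein-coding windows. ZFHX3 and ZNF790 bound 5 each, against 8.1% and 26.5%, and ZNF646 bound 3, against 11%. H2B minus the other types was 27.3 points for POU2F1, and between −5.11 and 11.8 points for these 6 lists. Without the windows of repeated words the POU2F1 difference was 18.1 points (82.4% of H2B genes and 64.3% of the other types), and those of the 6 lists lay between −11.2 and 10.4 points.

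Other histone genes and genes of the pathway were counted in the same way, beside the members' median of 25 lists. The 12 replacement and variant histone genes, which are expressed outside S phase or placed at special sites, had a median of 40 lists, with 8 highly bound. CENPA, the centromeric H3, had 90 lists, H3-3B 80 and H2AX 65, while H2AJ had 9 and the testis gene H3-5 had none. The 12 genes for transcription and 3′ processing of histone mRNA had a median of 46 lists, 10 of them highly bound: SLBP, the stem-loop binding protein, had 94, ZNF473, a U7 snRNP protein, had 86, NPAT had 52 and HINFP, the H4 promoter factor, had 40, while CASP8AP2 had 28 and CSTF2 15. Of the 3 matched histone genes outside the rule, H4C16 on chromosome 12 had 46 lists, and H3-4 and H2BK1 had none. For comparison, the hepatocyte genes APOA1, SERPINA1, AHSG, TTR and ALB had 66, 63, 62, 22 and 13 lists, and CD3E, MYOD1 and NEUROD1, genes of T cells, muscle and neurons, had none. Protein-coding genes other than the members had a median of 15 lists, and 32.1% of them had none, so these counts do not establish the cell type.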

How the data were processed

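The authors processed their FLAG ChIP-seq reads with the ENCODE pipeline into optimal peak calls against an input library. Per the labels the build is hg38. The sources used here do not name aligner, peak caller or versions, and lists do not keep replicates apart. The deposited lists give a peak's place, a score from 540 to 1000, a signal and a further score column of q values, which was not used. The deposited signal is not scaled between lists and served only to rank peaks within a list. The 24 input samples entered only as labels.

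A window was bound by a list if a peak overlapped the 500 bp on either side of the GENCODE 44 canonical TSS. Octamer, TATAAA and CCAAT were searched in the 250 bases upstream on both strands, and sequences come from hg38. Lists were compared with two-sided sign-flip or label permutations (100000), with Benjamini-Hochberg adjustment over the 10 pairs of types; single lists have exact intervals and no test. Tools were scipy 1.17.1, pandas 2.3.3, numpy 2.4.6, pysam 0.24.0 and matplotlib 3.10.9 under Python 3.11.15, and the calculations were tested on simulated data. Alternatives changed the window, the peak filter, the lists, the permuted unit and the members.

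Members, gene lists and tests were chosen with earlier results of these data known. Genes named were, by rule, the 3 members with most and the 2 with fewest lists in each type, every H2B gene, germline members, members with 0 lists and the fixed lists of other genes. Lists named were the 10 with the largest share of members, the 10 with the largest excess, the 3 leading in each type, POU2F1, E2F7, E2F8 and the lists with POU2F1's input. Other members, the lowest-excess lists and the pairs were named after their values were seen. Genes of 3 symbols in those lists (H2AW, H2BU1 and H2AK1) were not matched, and 1 further gene of the lists is not reported here.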

Additional observations from a re-analysis of the deposited data

Results flagged for a closer look

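The 6 lists that are not among the study's preferred data sets entered none of the comparisons above, and 5 of them had peaks at histone gene promoters. They were flagged for exceeding 3 of 68 members (4.41%). That floor is low, since the median preferred list had a peak at 19 members, so passing it shows nothing particular to histone genes. ZNF431 bound 28 of the 68 members (41.2%), against 26.5% of other protein-coding windows. EP300, an acetyltransferase found at active promoters and enhancers, bound 24 (35.3%), against 16.5%. ZZZ3 bound 21 (30.9%), against 24.1%, TSC22D2 bound 19 (27.9%), against 23.3%, and TUT4 bound 11 (16.2%), against 14.6%. The list of GPBP1L1, with 73 peaks in all, had none at a member. All 5 shares were above those of other protein-coding windows, as they were in 110 of the preferred lists, and the difference was not tested for single lists.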

How the results depend on the processing

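The excess of histone gene promoters over other protein-coding promoters and the difference between chromosome 6 and chromosome 1 members kept their direction and their side of the threshold under every alternative run, with values from 5.72 to 11.9 points and from 15.3 to 27.8 points. POU2F1 had a peak at 72.2% to 88.2% of H2B genes. The difference of TF and non-TF lists passed with 300 bp upstream only (−3.90 points, p = 0.02), a score of 830 or more (−3.95 points, p = 0.03) and the nearest TSS (−3.14 points, p = 0.036). The number of pairs of types that differed was 5, and 5 to 8 under the alternatives, with 8 when summits were given to the nearest TSS.

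The pairs of types often changed sign, in 34 of 120 values. With the nearest TSS, H1 minus H2A was 5.06 points, H1 minus H2B 9.73, H2A minus H2B 4.68, H2B minus H3 −3.76 and H2B minus H4 −11.6. With the nearest TSS and no repeated windows, a combination chosen after seeing the data, the same pairs were 1.24, 8.80, 7.56, −9.13 and −15.5, H1 minus H3 was −0.331 and H2A minus H3 −1.57. With a score of 830 or more, H1 minus H2A was 4.92, H1 minus H2B 3.21, H1 minus H4 0.571 and H2B minus H4 −2.64. With the peaks at or above the median signal, H1 minus H2A was 3.35, H1 minus H2B 2.34 and H2B minus H4 −3.76. With 300 bp upstream, the same 3 were 0.835, 0.413 and −4.27, and with a window of 250 bp they were 1.51, 0.367 and −2.20. With summits inside the window, H1 minus H2A was 0.972 and H2B minus H4 −1.80. With a window of 1000 bp, H2A minus H4 was 1.17. Without the germline genes, H1 minus H2A was 2.47, H1 minus H2B 0.418, H1 minus H4 3.20 and H2A minus H4 0.731. Without repeated windows, H1 minus H3 was −1.18 and H2B minus H4 −2.31. Besides these sign changes, H2A minus H2B did not pass under 4 alternatives, H2A minus H3 under 3 and H2B minus H3 under 1. In 15 of the 120 values a pair kept its sign and passed, though it had not passed above (sign-flip permutation tests over lists). Among these, H2A minus H4 was −4.69 points with 300 bp upstream (adjusted p = 0.0006) and −4.35 with a score of 830 or more (adjusted p = 0.00023). With the nearest TSS it was −6.94 (adjusted p = 2e-05). Its positive values given above did not pass. The cause was not tested.

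Tests compared windows within the same list, and with 1 list for each DAP there was no replicate to block on. The depth behind a list is unknown, and a window without a peak is not shown to be unbound.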
